A study of Mus musculus with 6 samples.

Results

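The outer dense fibres and the fibrous sheath are the structural elements of the sperm tail, and 10 genes for their proteins and for the capsule of the sperm mitochondria were followed here: Odf1, Odf2, Odf3, Odf4, Oaz3, Akap3, Akap4, Fscb, Cabyr and Smcp. They were taken by symbol, and all 10 had a row among the 23229 annotated genes of the count table. RNA came from mature sperm of the cauda epididymis and vas deferens of C57BL/6 mice of the transgenic line HP3.1, 4 months old, and the groups compared were sperm nuclei, freed from tails by sonication and spun through sucrose and detergent, and whole sperm without those steps. What the transgene carries is not given in the sources used here, and every library comes from the transgenic line. The 6 samples are 3 RNA preparations, each run 2 times on the sequencer: a first and a second isolation of nuclei (nuclei 1 and nuclei 2) and whole sperm. The files hold 1 column for each preparation. The comparison therefore set 2 nuclei libraries against 1 whole-sperm library. Nothing in the labels ties a preparation to a particular animal, so p-values measure the spread between the nuclei preparations, which may be technical. In such bulk RNA, fewer cells of a type and less RNA per cell cannot be told apart.

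Outer dense fibres are stiff, disulphide-bonded rods that run beside the microtubules of the tail. The fibrous sheath surrounds the principal piece of the tail and anchors signalling and glycolytic enzymes, while the mitochondria of the midpiece carry a cysteine-rich capsule. The transcripts for these proteins are made in spermatids, the haploid cells that shape the sperm, and mature sperm are held to be largely silent in transcription. The comparison sets the share of each transcript in RNA from washed nuclei, freed from the tail, against its share in RNA from intact sperm. Such shares do not give amounts per nucleus or per cell.

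The cysteine-rich character of the fibres and the capsule can be read directly from the coding sequences of Odf1 and Smcp, the 2 members that stand apart from the others in cysteine codons. Odf1 has 41 cysteine codons among 248 (16.5%), a share above that of 99.5% of the 21114 genes with a coding sequence in the GENCODE annotation. Smcp has 32 among 143 (22.4%), above 99.6% of genes, and 42 proline codons (29.4%). The median gene has 2.12% cysteine codons. Shown for each is the stretch of 40 codons richest in cysteine, 5′ to 3′ on the coding strand, with the cysteine codons in capitals. The Odf1 stretch, codons 195 to 234, lies at chr15:38226440-38226559 on the plus strand of mm10 and holds 14 cysteine codons in a repeating pattern of cysteine and proline. The Smcp stretch, codons 50 to 89, lies at chr3:92584272-92584391 on the minus strand and holds 15.
Odf1: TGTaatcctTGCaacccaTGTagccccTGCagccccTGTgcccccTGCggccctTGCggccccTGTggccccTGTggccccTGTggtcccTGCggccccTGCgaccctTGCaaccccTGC
Smcp: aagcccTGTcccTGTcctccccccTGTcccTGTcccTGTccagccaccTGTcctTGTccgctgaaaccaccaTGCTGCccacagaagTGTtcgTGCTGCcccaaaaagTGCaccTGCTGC

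The remaining members do not share this composition. Cysteine codons made up 3.69% in Akap4, 2.55% in Akap3, 2.41% in Odf4 and 1.84% in Odf2, against 0.909% in Cabyr, 0.787% in Odf3 and 0.282% in Fscb. Fscb, Odf3 and Cabyr are instead rich in proline, at 14.7%, 13.4% and 10.9% of codons, where the median gene has 5.27%. Odf1 has 10.1% proline codons, above 92.5% of genes but well below the 29.4% of Smcp. Codon shares of Oaz3, whose protein is read through a frameshift, were not computed.

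The 3 libraries (nuclei 1, nuclei 2, whole sperm) held 5487306, 6648848 and 8316345 counts over genes and assembled regions, and 13897, 12259 and 14630 annotated genes had a count. The spermatid and sperm marker list (Prm1, Prm2, Tnp1, Tnp2, Acrv1, Spaca1, Hils1, Tssk6) was detected in full in every library, at a summed level of 3825, 3223 and 1647 CPM (counts scaled to library size, here with TMM factors) in nuclei 1, nuclei 2 and whole sperm. Markers of epididymis and vas deferens summed to 2676, 2698 and 16717 CPM, with Lcn5 and Rnase10 at 0 in all libraries, and Crisp1, a secreted epididymal protein gene named after its value was seen, fell in nuclei (log2 -3.67, edgeR quasi-likelihood test, Benjamini-Hochberg adjusted p = 0.0241). Crisp1 was not called by edgeR with library size alone (adjusted p = 0.0900) or with a mean of at least 10 CPM (adjusted p = 0.491), nor by limma on RPKM (adjusted p = 0.307 to 0.390). Epithelial markers summed to 94.8, 143 and 423 CPM, leukocyte markers to 9.54, 8.69 and 23.3, smooth muscle and stroma to 105, 72.9 and 95.6 (Des at 0 in all), and Sertoli and Leydig cells to 27.7, 3.60 and 1.27 (Amh, Inha, Star, Hsd3b1 and Insl3 at 0 in all). Erythrocyte markers summed to 0, 0.600 and 0.346 CPM, with Hba-a1, Hba-a2 and Hbb-b1 at 0 in all. The part of epididymal RNA in the members' differences was not tested. Of the summed counts of genes, regions and shared spike-ins, the spike-ins made up 9.69% and 10.4% in the nuclei libraries and 4.20% in whole sperm.

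Together the members took 10806 counts in the first nuclei library, 17467 in the second and 14619 in whole sperm. That is 0.197% of all counts (exact Clopper-Pearson 95% interval 0.193% to 0.201%), 0.263% (0.259% to 0.267%) and 0.176% (0.173% to 0.179%). By this share both nuclei libraries lay above whole sperm, and they differed from each other by more than nuclei 1 differed from whole sperm. In summed RPKM (580, 914 and 760 in nuclei 1, nuclei 2 and whole sperm) nuclei 1 lay below whole sperm. Under spike-in scaling 9 members had both nuclei libraries below whole sperm. Intervals cover counting error only. Odf1, Odf2, Oaz3, Cabyr and Smcp supplied 91.6%, 87.5% and 87.9% of the members' counts in nuclei 1, nuclei 2 and whole sperm. Smcp alone went from 20.9% and 15.8% of the members' counts in nuclei 1 and 2 to 35.9% in whole sperm.

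Compared per length in the deposited RPKM values (reads per kilobase, scaled to library size), Cabyr, Smcp, Oaz3, Odf1 and Odf2 held ranks from 21 to 179 among annotated genes in every library, and the other 5 members ranked lower. In the order nuclei 1, nuclei 2, whole sperm, Cabyr had an RPKM of 139, 324 and 149, ranks 42, 21 and 67 of 23225 genes. Smcp had an RPKM of 179, 180 and 333, ranks 27, 58 and 25. In nuclei 1 and whole sperm the order of RPKM was Smcp, Cabyr, Oaz3, Odf1, Odf2 and Akap4, while in nuclei 2 Cabyr led, followed by Smcp, Odf1, Odf2, Oaz3 and Akap4. Odf1 and Odf2 were next to each other in all 3 libraries, with 75.3 beside 64.5 (nuclei 1), 134 beside 130 (nuclei 2) and 79.6 beside 77.7 (whole sperm), closer than the nuclei libraries were to each other. Oaz3 was at 101, 93.4 and 82.7, which is within the range that Odf1 and Odf2 spanned over the libraries. Akap4 followed at 11.6, 31.4 and 24.9 and Akap3 at 3.65, 7.78 and 7.35, so that the nuclei libraries of each spanned its whole-sperm level. The other 3 changed places with each other and with Akap3 between libraries, with Fscb at 0.509, 0.927 and 2.89, Odf4 at 4.91, 0.124 and 2.43, and Odf3 at 0.373, 11.9 and listed at 0. RPKM depends on the transcript length used: GENCODE lists transcripts of 746 to 2131 bases for Cabyr and 349 to 4291 for Odf2.

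**Figure D1:**
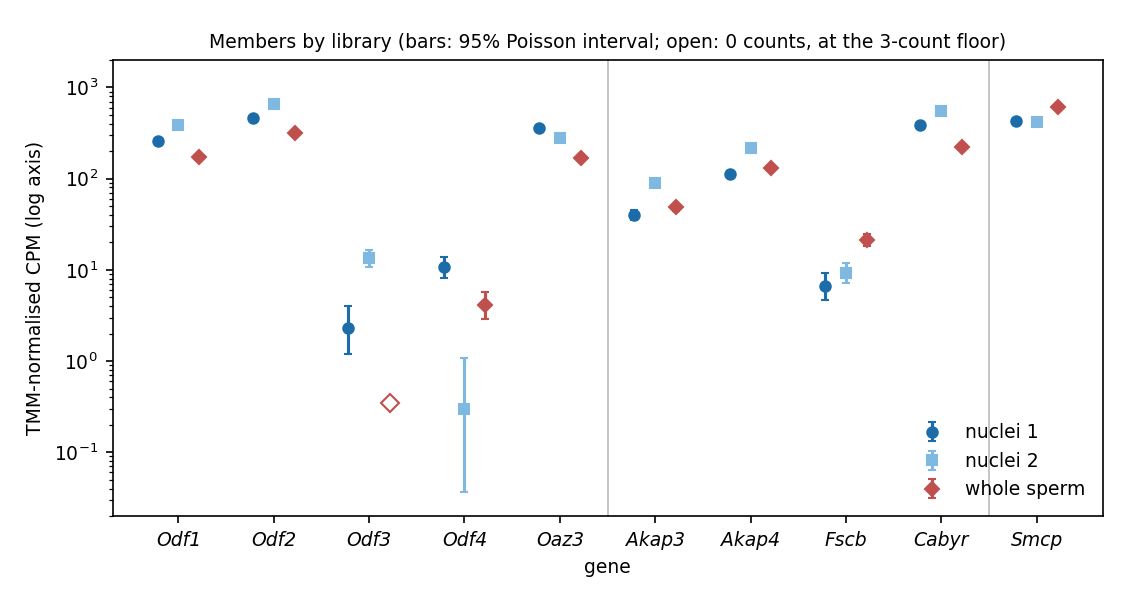
TMM-normalised CPM of each gene (log axis) in nuclei 1, nuclei 2 and whole sperm, with 95% Poisson intervals for counting error; the open diamond is Odf3 in whole sperm, drawn at the floor of 3 counts. Odf1, Odf2, Oaz3 and Cabyr have both nuclei libraries above whole sperm (below it under spike-in scaling), Smcp and Fscb have both below, and Odf3 and Odf4 differ most between the nuclei libraries.

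Among the outer dense fibre genes, Odf1, Odf2 and Oaz3 were each higher in both nuclei libraries than in whole sperm in TMM-scaled CPM, by under 2-fold on average, and lower in both under spike-in scaling. Odf1 (chr15:38219203-38226735, plus strand, 2 exons) encodes a main fibre protein of the small heat shock protein family. For nuclei 1, nuclei 2 and whole sperm its counts were 1369, 2570 and 1500, or 261, 385 and 173 CPM. The groups did not overlap, and nuclei 2 was the higher of the pair. Against a nuclei mean of 323 ± 87.7 CPM (SD, n = 2), the difference was 1.87-fold (log2 0.90 ± 0.76, SE; edgeR quasi-likelihood test, Benjamini-Hochberg adjusted p = 0.909).

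Odf2 (chr2:29889221-29931746, plus strand, 17 exons in its reference transcript) encodes a coiled-coil fibre protein that also occurs, in other isoforms, at the centrosomes of somatic cells. Its counts were 2393, 4350 and 2728, or 457, 652 and 315 CPM in nuclei 1, nuclei 2 and whole sperm. As for Odf1, nuclei 2 was highest and whole sperm lowest. The nuclei mean of 554 ± 138 CPM (SD, n = 2) was 1.76-fold that of whole sperm (log2 0.82 ± 0.76, edgeR adjusted p = 0.909). Counts per gene do not separate the 25 annotated transcripts.

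Oaz3 (chr3:94432414-94443915, minus strand, 6 exons) encodes the testis antizyme, an inhibitor of ornithine decarboxylase, and is grouped here with the fibres because of its product in the tail. It had 1876, 1878 and 1449 counts, or 358, 282 and 167 CPM. In contrast to Odf1 and Odf2, nuclei 1 was the higher nuclei library, and Oaz3 was the only abundant member above whole sperm in both libraries by RPKM as well as by CPM. The nuclei mean of 320 ± 54.1 CPM (SD, n = 2) was 1.91-fold the whole-sperm level (log2 0.93 ± 0.76, edgeR adjusted p = 0.909). Of the 935 bases of its transcript, 340 (36.4%) are also covered by exons of Tdrkh on the opposite strand. Over all annotated exons of Oaz3, 2255 bases are shared with Tdrkh and 157 with Mrpl9, which is also on the opposite strand. Whether counting used strand is not given in the sources used here, so reads over shared bases cannot be told apart. Tdrkh itself had 10, 0 and 25 counts and Mrpl9 had 106, 14 and 151 (nuclei 1, nuclei 2, whole sperm).

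Odf3 and Odf4 were scarce and differed most between the nuclei libraries. Odf3 (chr7:140847805-140851018, plus strand, 7 exons), a gene for a proline-rich tail protein, had 12 counts in nuclei 1 and 89 in nuclei 2, and none (0) was found for whole sperm. That is 2.29 and 13.3 CPM against a floor of 0.346 CPM, the level of 3 counts in the whole-sperm library. The nuclei mean of 7.82 ± 7.82 CPM (SD, n = 2) was 22.6-fold that floor, with an edgeR adjusted p = 0.909. Nuclei 1 alone was 6.61-fold the floor. These are not lower bounds, as the 95% counting interval of whole sperm reached 0.426 CPM, above the floor. Odf4 (chr11:68921835-68927081, minus strand, 5 exons), which encodes a membrane-associated tail protein, had 56 and 2 counts in the nuclei libraries and 36 for whole sperm. Its CPM of 10.7 and 0.300 lay on either side of the 4.16 of whole sperm. With only 2 counts in nuclei 2, the ratio of nuclei 1 to nuclei 2 was 35.6, with an exact 95% counting interval of 9.42 to 302. The groups overlapped (log2 0.40 ± 4.53, edgeR adjusted p = 1.00).

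In TMM-scaled CPM the fibrous sheath genes did not share a direction. Cabyr was higher in both nuclei libraries, Akap3 and Akap4 had nuclei libraries on either side of whole sperm, and Fscb was lower in both. Under spike-in scaling each of these genes lay below whole sperm in both nuclei libraries. Akap4 (chrX:7067519-7078609, plus strand, 6 exons) encodes the main anchoring protein of the sheath, which binds protein kinase A. It had 592, 1439 and 1136 counts, or 113, 216 and 131 CPM in nuclei 1, nuclei 2 and whole sperm. Nuclei 1 was lowest and nuclei 2 highest, so the groups overlapped (nuclei 164 ± 72.7 CPM, SD, n = 2, log2 0.33 ± 0.77, edgeR adjusted p = 0.993).

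Akap3 (chr6:126853098-126874308, plus strand, 6 exons), an anchoring protein gene of the same sheath, showed the same order with 210, 597 and 418 counts, or 40.1, 89.5 and 48.3 CPM. Its groups overlapped too (nuclei 64.8 ± 34.9 CPM, SD, n = 2, log2 0.42 ± 0.96, edgeR adjusted p = 0.992). Fscb (chr12:64471330-64474690, minus strand) encodes a phosphorylated sheath protein that binds CABYR and is the only member with a single exon. It had 35, 62 and 185 counts, or 6.68, 9.29 and 21.4 CPM, and both nuclei libraries lay below whole sperm. Whole sperm was 2.68-fold higher than the nuclei mean of 7.99 ± 1.85 CPM (SD, n = 2, log2 -1.42 ± 2.34, edgeR adjusted p = 0.972).

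Cabyr (chr18:12740322-12755260, plus strand, 6 exons) encodes a calcium-binding, tyrosine-phosphorylated sheath protein. It had 2007, 3724 and 1916 counts, or 383, 558 and 221 CPM in nuclei 1, nuclei 2 and whole sperm. The groups did not overlap in CPM, and nuclei 2 was highest, whereas by RPKM nuclei 1 (139) lay below whole sperm (149). Cabyr had the largest fold among the members with over 100 CPM in each library, 2.13 (nuclei 471 ± 124 CPM, SD, n = 2, log2 1.09 ± 0.77, edgeR adjusted p = 0.909).

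In TMM-scaled CPM Smcp, the mitochondrial capsule gene, was the only abundant member lower in both nuclei libraries than in whole sperm. Under spike-in scaling Odf1, Odf2, Oaz3, Akap4 and Cabyr also lay below whole sperm in both. Smcp, located at chr3:92583867-92588997 on the minus strand, with 2 exons, encodes the cysteine- and proline-rich protein of the midpiece whose richest stretch is printed above. The nuclei libraries held 2256 and 2756 Smcp counts and whole sperm 5251, or 431, 413 and 606 CPM. The nuclei libraries were close to each other, at a ratio of nuclei 2 to nuclei 1 of 0.960, and whole sperm stood above both. Whole sperm was 1.44-fold higher than the nuclei mean of 422 ± 12.3 CPM (SD, n = 2, log2 -0.52 ± 0.72, edgeR adjusted p = 0.937). The standard error is pooled over genes and is wider than the gap between the nuclei libraries of Smcp alone.

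**Figure D2:**
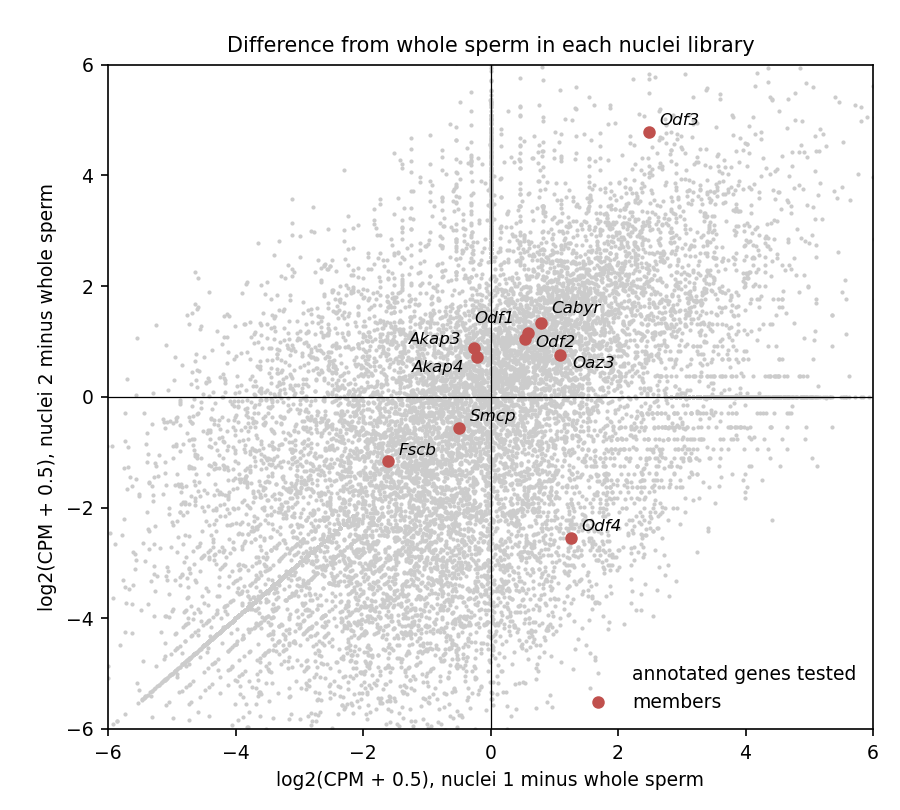
Difference from whole sperm in log2(CPM + 0.5), nuclei 1 on the x axis and nuclei 2 on the y axis, for the 14397 annotated genes tested (grey; 95 lie outside the axes) and the members (red). Under TMM scaling Odf1, Odf2, Odf3, Oaz3 and Cabyr lie at the upper right (of these only Odf3 does under spike-in scaling), Fscb and Smcp at the lower left, and Odf4, Akap3 and Akap4 where the differences have opposite signs.

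None of the 10 members passed the test, and none had an unadjusted p under 0.05 in edgeR's quasi-likelihood test. Limma on RPKM called no annotated gene at all, members included. DESeq2 called none of the 8 members to which it gave an adjusted p (all but Odf3 and Odf4). Over the 8195 annotated genes with an adjusted p it called 92 higher and 36 lower. Unadjusted values under 0.05 came from DESeq2 for Odf3 (0.0231), limma on log2(RPKM + 1) for Smcp (0.0452) and edgeR with spike-in scaling for Smcp (0.00259). Among all 14397 annotated genes tested with edgeR, 0.0278% were called higher in nuclei and 0.111% lower, so a count of 0 among 10 genes is near the background. With 2 nuclei libraries against 1, an exact permutation test of a single gene cannot give a p under 0.333. Both nuclei libraries lay above whole sperm for 5 members (Odf1, Odf2, Odf3, Oaz3 and Cabyr), against 26.1% of genes, and both lay below for 2 members (Fscb and Smcp), against 41.2%. The remaining 3, Odf4, Akap3 and Akap4, were split. The median log2 fold change of the members was 0.62, beside 0.27 over all features tested and -0.04 over annotated genes. With Odf3 set to its fold over the floor the median was also 0.62.

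The sign of most members depended on the scale. Scaling by spike-ins moved the median of all features from 0.27 to -1.16 and that of the members from 0.62 to -0.82. In this scaling only Odf3 had both nuclei libraries above whole sperm, and the other 9 members had both below. In RPKM, 2 members (Odf3 and Oaz3) had both nuclei libraries above whole sperm, 2 (Fscb and Smcp) had both below, and 6 were split. The share of all annotated genes on either side was not computed for spike-in scaling or RPKM. These counts therefore cannot be read as particular to the members. The members' median stood above that of all features by 0.35 under TMM, 0.34 under spike-in scaling and 0.52 in log2(RPKM + 0.1). In log2(RPKM + 1) it stood above by 0.15, and under TMM by 0.86 without nuclei 1 and 0.64 without nuclei 2. Fscb and Smcp lay below the median of all features in each of these settings. They were joined by Odf4 in log2(RPKM + 0.1) and without nuclei 1, by Odf4, Akap3 and Akap4 in log2(RPKM + 1), and by Akap3 and Akap4 without nuclei 2.

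**Figure D3:**
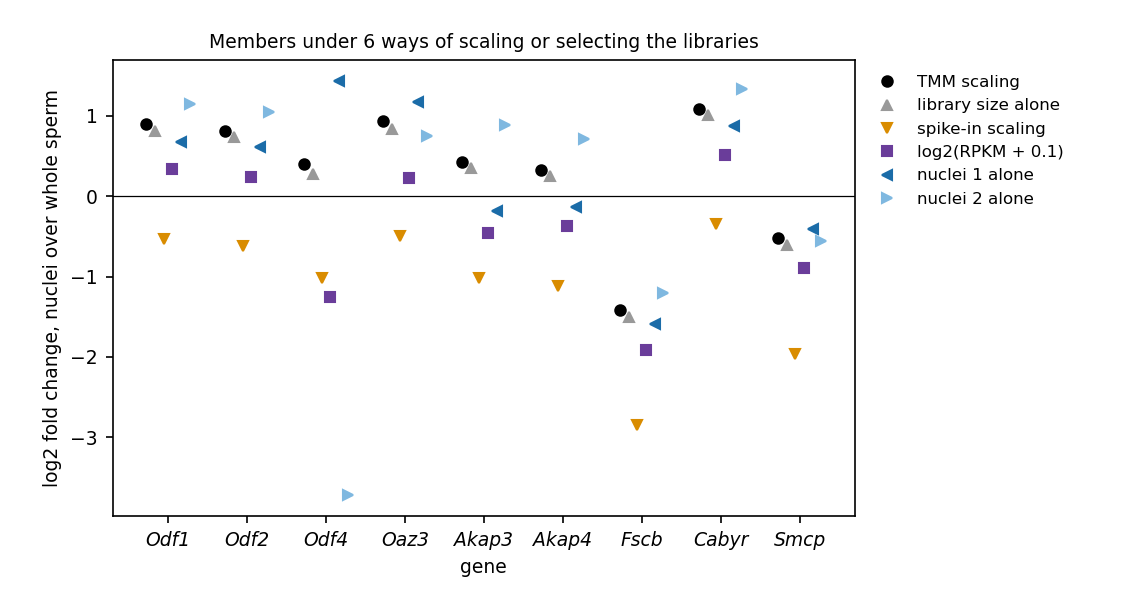
Log2 fold change of nuclei over whole sperm (y axis) for each gene except Odf3, under 6 scalings or choices of library. Fscb and Smcp stay below 0 at every point, Odf1, Odf2, Oaz3 and Cabyr drop below 0 under spike-in scaling, and Odf4, Akap3 and Akap4 change sign between nuclei 1 alone and nuclei 2 alone.

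Ratios between members within a library do not depend on how libraries are scaled. Smcp was taken as the denominator after its values had been seen, so these ratios are descriptions. Per Smcp count, Odf2 had 1.06 and 1.58 counts in the nuclei libraries and 0.520 in whole sperm. Odf1 had 0.607, 0.933 and 0.286, Oaz3 had 0.832, 0.681 and 0.276, and Cabyr had 0.890, 1.35 and 0.365. For each of these 4 genes the nuclei libraries stood at 2.04 to 3.70 times the whole-sperm ratio, with no overlap. The lack of overlap by counts was fixed by the choice of Smcp. In TMM-scaled CPM these 4 genes lay above whole sperm in both nuclei libraries, and Smcp lay below it in both. The share of all genes that rose per Smcp count was not computed. Both nuclei libraries were above whole sperm in RPKM too for these 4 genes, where Odf1 per Smcp was 0.421, 0.747 and 0.239 and Odf2 per Smcp was 0.361, 0.724 and 0.234. The RPKM ratios also rest on the choice of Smcp, whose own RPKM was 179, 180 and 333 in nuclei 1, nuclei 2 and whole sperm. In RPKM without this division, Odf1, Odf2 and Cabyr had nuclei 1 below whole sperm.

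The anchoring protein genes were nearer to Smcp. Per Smcp count, Akap4 was at 0.262 and 0.522 in the nuclei libraries against 0.216, and Akap3 was at 0.0931, 0.217 and 0.0796. Both nuclei libraries lay above whole sperm by counts, but nuclei 1 lay below it by RPKM for both genes (0.0652 against 0.0748 for Akap4, 0.0204 against 0.0221 for Akap3). Fscb per Smcp count was lower in nuclei, at 0.0155 and 0.0225 against 0.0352, so Fscb was further below whole sperm than Smcp was.

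**Figure D4:**
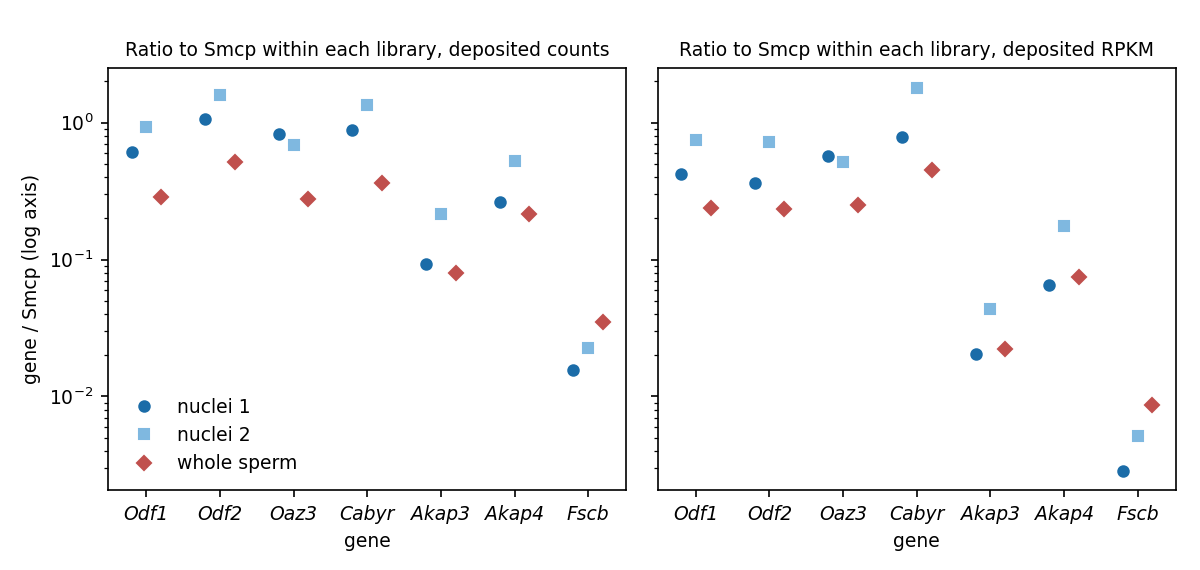
Ratio of each gene to Smcp within each library (log axis), from deposited counts (left) and deposited RPKM (right). Odf1, Odf2, Oaz3 and Cabyr have both nuclei libraries above whole sperm in both panels, Fscb has both below, and nuclei 1 of Akap3 and Akap4 falls below whole sperm on the right.

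Set against the 8 spermatid and sperm markers, the members looked different. Per marker count the members had 0.539 and 0.812 counts in the nuclei libraries and 1.03 in whole sperm, so both nuclei libraries lay below whole sperm. Without Smcp the ratios were 0.427, 0.684 and 0.657, with whole sperm between the nuclei libraries. For Smcp alone they were 0.113, 0.128 and 0.368. The marker list is led by nuclear protein genes of the spermatid, and its summed CPM was itself higher in both nuclei libraries than in whole sperm.

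The adjusted whole-sperm column that the authors deposited kept a smaller share of the members' summed counts than of all counts, but a larger share for Smcp and Fscb. Each of its 25610 values was what remained of the whole-sperm count after the average nuclei count had been subtracted, with 0 as the lowest value (within 0.5), so it depends on raw depth. It was at 0 for 5 members (Odf1, Odf2, Odf3, Oaz3 and Cabyr), of which Odf3 had no whole-sperm count to begin with. Of the 9 members with such a count 4 were set to 0, beside 34.1% of the 15602 rows with one. Akap3 kept 15 counts (3.59%), Akap4 121 (10.7%), Odf4 7 (19.4%), Smcp 2745 (52.3%) and Fscb 137 (74.1%). Over the 10 members 3025 of 14619 counts were kept (20.7%), against 40.8% over all rows, and Smcp held most of them.

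Of 61 listed genes of the same structures and families, 54 were tested, and Fsip2 and Azin2 had no row. The tested genes gave no call at an adjusted p under 0.05 and 6 (11.1%) at an unadjusted p under 0.05, beside 5.44% of all annotated genes (edgeR). DESeq2 called none of them, beside 92 higher and 36 lower of 8195 annotated genes, and limma on RPKM called no annotated gene at all. Under spike-in scaling edgeR called 5, all lower in nuclei, beside 527 of all annotated genes (3.66%) called lower. Of 9 tested genes related to the outer dense fibres, 7 had a log2 fold change above 0, with a median of 1.99. Signs in this and the later lists are those under TMM scaling. The share of all annotated genes on either side of 0 was not computed, and the median of those tested was -0.04. Spag4, whose protein binds ODF1, reached 179 and 191 CPM in the nuclei libraries and 40.9 in whole sperm (log2 2.18 ± 0.86, edgeR adjusted p = 0.507). Odf3b, named after its value was seen, had 46.8, 74.7 and 10.9 CPM, a log2 difference of 2.48 (edgeR adjusted p = 0.800). Spag5, a spindle protein gene whose product also binds ODF1, was at 180, 204 and 77.0 CPM. Vdac2, a channel gene of the mitochondrial outer membrane found in the fibres, went the other way at 36.3, 43.3 and 104 CPM.

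Of 15 tested genes related to the fibrous sheath, 3 were above 0 and 12 below under TMM scaling. Their median was -0.36, beside -0.04 over annotated genes tested. Hk1, a hexokinase gene, stood at 545, 467 and 584 CPM (nuclei 1, nuclei 2, whole sperm). Gapdhs, the sperm glyceraldehyde-3-phosphate dehydrogenase of the sheath, had 267, 361 and 108 CPM, a log2 difference of 1.55 (edgeR adjusted p = 0.856). Both nuclei libraries lay above whole sperm in TMM-scaled CPM. Gstm5, a glutathione transferase gene, was at 75.6, 140 and 146 CPM. Aldoart2, an aldolase gene named after its value was seen, had the only unadjusted p under 0.05 in the list, on 3, 252 and 1 counts, so that nuclei 2 alone supplied it. Among 7 mitochondrial sheath genes 3 were above 0 and 4 below, with a median of -0.24. Gpx4, whose product is a structural part of the capsule beside SMCP, was at 27.7, 17.2 and 45.3 CPM, in the same order of groups as Smcp. Spata18 was at 101, 126 and 134 CPM and Tbc1d21 at 40.6, 27.0 and 18.6.

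The 14 other A-kinase anchoring protein genes had a median of -1.59, with 6 above 0 and 8 below. Akap12 was at 1982, 1921 and 1113 CPM and Akap1, a mitochondrial anchor, at 100, 145 and 54.2. Akap8l, Akap9 and Akap11 had an unadjusted p under 0.05 and were lower in nuclei, Akap9 and Akap11 being named after their values were seen. Akap8l was at 53.1, 45.9 and 154 CPM, Akap9 at 25.8, 26.5 and 143, and Akap11 at 6.49, 40.5 and 107, with edgeR adjusted p-values of 0.839, 0.420 and 0.628. The somatic relatives of Oaz3 and other polyamine genes, 9 tested, had a median of -1.11. Oaz1, the common antizyme, was at 162, 222 and 187 CPM with whole sperm between the nuclei libraries, unlike Oaz3. Azin1, an antizyme inhibitor gene, was at 44.1, 118 and 93.9 CPM, and Odc1, the enzyme gene that antizymes act on, had 17.0, 15.7 and 74.4 with a log2 difference of -2.18 (edgeR adjusted p = 0.875).

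The members' median RPKM profile was 27.4, 54.2 and 44.0 for nuclei 1, nuclei 2 and whole sperm. Of 14384 annotated genes ranked by Euclidean distance in log2(RPKM + 0.1) over the 3 libraries, the nearest were Caprin1 (distance 0.136), Cspp1 (0.194), Tmed6 (0.225), Jmjd1c (0.226) and Impdh2 (0.237). Over the 939 genes with a mean of at least 100 CPM, nuclei 2 stood above nuclei 1 by a median of 0.40 on the log2 scale, and the median size of the difference was 0.58. Odf1 and Odf2 differed by 0.56 and 0.51 in the same direction.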

How the data were processed

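RNA sequencing of sperm nuclei (2 preparations) and whole sperm (1 preparation) was used. The authors deposited unnormalized whole-number read counts for each gene and assembled region. The authors also deposited RPKM values, 1 column per preparation, which were not derived from the same counts by 1 factor per gene: for Odf3, RPKM per count was 0.0311 in nuclei 1 and 0.134 in nuclei 2. A further deposited column, the authors' adjusted whole-sperm values, was treated as a score. Per the submitters' processing notes, reads were handled against build mm10 by TopHat2 2.0.12, HTSeq, SAMtools 0.1.19, Cufflinks 2.1.1, DESeq2, bedtools and CASAVA 1.8.2. The role of each and any use of strand were not given in the sources used here. Reads outside features (34.4%) and ambiguous reads (1.97% of 17120316 in the whole-sperm table) and spike-ins were left out of library sizes and tests.

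Counts were tested with the quasi-likelihood test of edgeR 4.0.16 under R 4.3.3, after filterByExpr and TMM scaling, on 16720 features (14397 genes, 2323 regions), with Benjamini-Hochberg adjustment over all of them and a threshold of 0.05. All 10 members passed the filter. The fit has 1 residual degree of freedom, whole sperm, with a single library, is taken to vary as nuclei do, and the spread is pooled over genes (infinite prior degrees of freedom). The procedure was tested on simulated data, with recovery of changes required only at a spread far below that of these data (common biological coefficient of variation 1.30). That check does not show which changes can be recovered here. Fold changes are nuclei over whole sperm. A fold against a library at 0 used a floor of 3 counts in that library, and the fitted fold change of such a gene is not given. RPKM values were tested with limma 3.58.1 on log2(RPKM + 0.1), which understates the change of low genes. An alternative scaling by the 23 spike-ins common to the tables assumes equal amounts added.

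Every member is named. Of each related list the rule names any gene past the threshold, else the 3 with the highest mean CPM, and of marker lists the summed level and any gene at 0 in all libraries. The members and lists were chosen with earlier results of these data known. Positions, overlaps and coding sequences come from GENCODE vM21 on the mm10 assembly. As alternatives, scaling used DESeq2 size factors, spike-ins, library size only, or TMM without the 10 top features; the filter was dropped or raised to a mean of 10 CPM; tests were DESeq2 1.42.0 and limma on RPKM; and each nuclei library was left out.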

Additional observations from a re-analysis of the deposited data

How the results depend on the processing

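No member was called under any alternative with a test: the lowest adjusted p of a member was 0.0685, for Smcp under spike-in scaling (edgeR, log2 -1.96). DESeq2 gave Odf3 and Odf4 no adjusted p. Spike-in scaling called 5 related genes lower in nuclei, against 0 under TMM (Akap8l, Akap9, Akap11, Odc1 and Vdac2). It turned the members' median to -0.82, and Odf1 to -0.54, Odf2 to -0.62, Odf4 to -1.01, Oaz3 to -0.50, Akap3 to -1.02, Akap4 to -1.12 and Cabyr to -0.35. Counts of members with both nuclei libraries on 1 side of whole sperm, an alternative added after seeing the data, went under it from 5 above and 2 below to 1 above and 9 below, and in RPKM 2 were above. Shares over all genes were not computed for these alternatives. On log2(RPKM + 0.1), with and without the filter, the members' median was -0.072, Odf4 was -1.25, Akap3 -0.46 and Akap4 -0.38, and on log2(RPKM + 1) they were -0.062, -0.41, -0.39 and -0.35. The cause was not tested. Each nuclei library left out in turn (nuclei 1, then nuclei 2) gave -3.72 and 1.44 for Odf4, 0.89 and -0.19 for Akap3, and 0.72 and -0.14 for Akap4. The members' median was 0.82 without nuclei 1 and 0.64 without nuclei 2. Over all annotated genes, edgeR called 4 higher and 16 lower under TMM, DESeq2 92 and 36, spike-in scaling 1 and 527, library size alone 2 and 13, and no gene with a mean of at least 10 CPM or in limma on RPKM. That filter left no value for Odf3 and Odf4. No paired analysis was possible because whole sperm has 1 library. Standard errors of the members, pooled over genes, were 0.72 or more on the log2 scale, which limits the differences that could be called.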
